A study of Mus musculus with 20 samples.

Results

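CC chemokines are small secreted proteins that draw leukocytes into tissue, and 9 mouse genes of this family are described here across ear skin exposed to IL-4, IL-13 or IL-31. They were chosen by name for the cells that their products attract: Ccl11 and Ccl24 (eosinophils), Ccl17 and Ccl22 (Th2 cells), Ccl2, Ccl7, Ccl8 and Ccl12 (monocytes) and Ccl27a (skin-homing T cells). Of these 9 genes, 8 had a row among the 16669 genes of the deposited table, and Ccl17 was not analysed here. All 8 passed the filter on low values, although Ccl12 reached a log2 CPM (log2 of the read count relative to the size of the library) of 0 in only 6 of 20 libraries, 3 of IL-31 and 3 of PBS ears. A stricter filter (log2 CPM of at least 1 in 10 libraries) removed Ccl12 and Ccl24. Bulk RNA-seq had been carried out on mouse ear pinnae after intradermal injection into the right ear, with 5 libraries per group. The groups had received IL-4, IL-13 or IL-31, each as 10 µl at 0.1 µg/µl diluted in PBS, or PBS without cytokine. The sources used here do not give strain, age, sex, volume of PBS in the controls, time to harvest or whether each library is a separate animal. The p-values therefore describe the spread among these libraries.

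The products of Ccl11 (eotaxin-1) and Ccl24 (eotaxin-2) act through Ccr3 on eosinophils, and those of Ccl17 and Ccl22 act through Ccr4 on Th2 and skin-homing T cells. The products of Ccl2, Ccl7 and Ccl12 act through Ccr2, which brings classical monocytes out of the bone marrow and into inflamed tissue, while mouse Ccl8 acts on Ccr8-bearing T cells. IL-4 and IL-13 signal through receptors that contain Il4ra to the transcription factor Stat6, and they are known to raise eotaxins and Ccr4 ligands in several cell types. Ccl27a is made by keratinocytes and binds Ccr10.

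Effective depth, read from the spacing of the low values, ran between 6.10 M reads (M, mega; IL-4 library 5) and 23.73 M reads (IL-31 library 4). A count of 3 reads corresponded to 0.126 to 0.491 CPM. PBS library 5 had the highest Ccl2, Ccl7, Ccl8 and Ccl12 of all 20 libraries and the lowest Ccl27a. Its summed level over 10 monocyte markers was 1200 CPM, against 364 to 611 CPM in the other PBS libraries, and that over 12 macrophage markers was 771 CPM, against 225 to 474 CPM. Its 12 fibroblast markers summed to 11900 CPM, against 4510 to 8410 CPM in the other PBS libraries. A list of 12 neutrophil markers summed to 588, 1220 and 784 CPM in PBS libraries 1, 3 and 5 and to 91.3 and 106 CPM in PBS libraries 2 and 4. The 12 skeletal muscle genes summed to 408 to 3680 CPM in IL-4 ears, 929 to 3900 CPM in IL-13 ears and 1880 to 8530 CPM in IL-31 ears, against 6480 to 19600 CPM in PBS ears. The 12 keratinocyte markers summed to 43900 to 55800 CPM in IL-4 ears, against 24100 to 52500 CPM in PBS ears, with PBS libraries 1, 2 and 3 the lowest. The part of these library differences in the chemokine results was not tested beyond the fits given below. In whole tissue, fewer cells of a type and less RNA per cell cannot be told apart.

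Levels of the chemokines were first set in order per kilobase of exon, which allows genes to be compared. In IL-4 ears Ccl8 was the highest at 28.9 ± 10.5 CPM per kb, followed by Ccl27a at 6.28 ± 0.899, Ccl7 at 4.32 ± 1.55 and Ccl11 at 2.62 ± 0.872 CPM per kb (SD, n = 5 here and below). Ccl22 (2.30 ± 1.37), Ccl2 (1.20 ± 0.576), Ccl24 (1.01 ± 0.401) and Ccl12 (0.642 ± 0.390 CPM per kb) came last. Each of the first 3 steps in this order was larger than the SD of both genes, and each later step was smaller than the larger SD of its pair. IL-13 ears had the same order, led by Ccl8 at 33.5 ± 7.90 and ended by Ccl12 at 0.899 ± 0.172 CPM per kb. In IL-31 ears Ccl7 came next after Ccl8, at 10.0 ± 6.78 CPM per kb, and Ccl2 (3.24 ± 1.67) and Ccl11 (3.00 ± 0.816 CPM per kb) differed by less than their SDs. In PBS ears the means put Ccl7 next after Ccl8, at 17.1 CPM per kb with an SD larger than this mean, and Ccl2 above Ccl11, at 6.50 ± 7.52 CPM per kb. Both steps rest on PBS library 5. Without it Ccl27a averaged 8.49 and Ccl7 8.16 CPM per kb, and Ccl11 averaged 3.86 and Ccl2 3.15 CPM per kb. No neighbouring genes in the PBS order differed by more than the larger of their SDs, which PBS library 5 widened for the monocyte chemokines. None of the 8 genes was at 0 reads in any library.

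**Figure D1:**
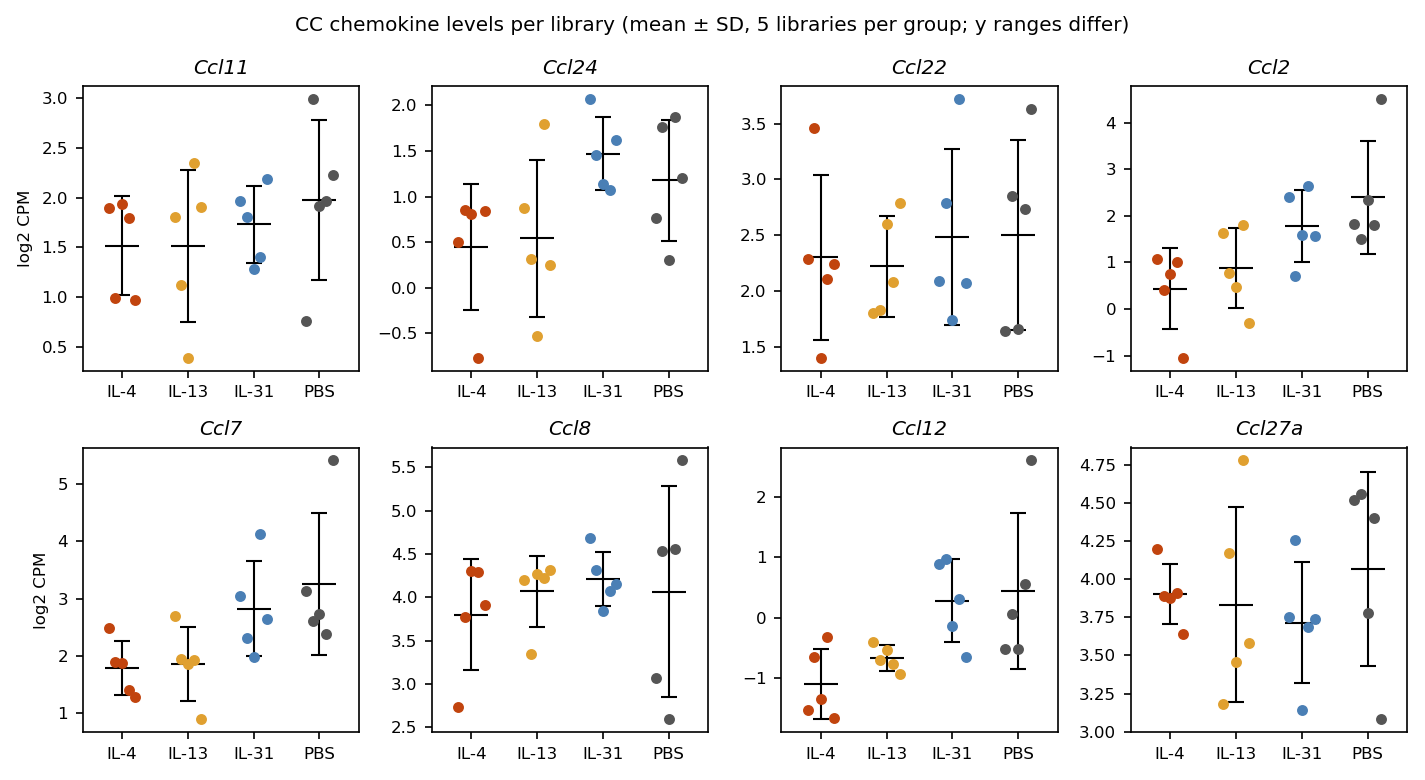
Level of each CC chemokine in log2 CPM (y axis, range set per gene) in the 5 libraries of the IL-4, IL-13, IL-31 and PBS groups (x axis); points are libraries and bars are the mean ± SD. Ccl2 values of IL-4 ears lie below every PBS value, and PBS library 5 stands above the other PBS libraries for Ccl2, Ccl7 and Ccl12.

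The first comparison asked which of these chemokines differed between ears given IL-4 and ears given PBS. Ccl2, Ccl7 and Ccl12 fell, by 1.97, 1.46 and 1.53 on the log2 scale, and no member rose. Ccl8, which lies beside Ccl12 on chromosome 11, and the eotaxin genes did not pass the test. The 3 calls are 3 of 8 genes, all lower, where 17.8% of the 16461 tested genes were called in either direction and 9.63% were called lower (limma, Benjamini-Hochberg adjusted p under 0.05). Ccl12 passed the filter only through IL-31 and PBS libraries, and without it the calls are 2 of 7 genes. The median log2 difference was -0.59 over the 8 genes and -0.02 over all tested genes. All 3 calls were lost when only the 10 IL-4 and PBS libraries were fitted (limma adjusted p 0.0568 for Ccl2, 0.0937 for Ccl7 and 0.125 for Ccl12).

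Ccl2 encodes the chief ligand of Ccr2 and lies on chromosome 11 of GRCm38 at 82035571-82037453, on the plus strand. Its log2 CPM was 1.07, 0.40, 0.75, 1.01 and -1.05 in IL-4 libraries 1 to 5, against 1.83, 1.51, 2.35, 1.80 and 4.51 in PBS libraries 1 to 5. The groups did not overlap: the highest IL-4 value lay below the lowest PBS value, IL-4 library 5 stood lowest and PBS library 5 stood highest. Such separation in the lower direction was found for 5.89% of tested genes. The difference was -1.97 (SE 0.55, 95% interval -3.12 to -0.82), or 3.91-fold lower, with a limma adjusted p of 0.019. The exact two-sided permutation p was 0.00794, the smallest that splits of 5 against 5 libraries can give. After Benjamini-Hochberg adjustment over 48 member tests this permutation p was 0.169. Without PBS library 5 the difference was -1.44 with an adjusted p of 0.0375 (limma), and without IL-4 library 5, whose value rests on about 2 reads, it was -1.59 with an adjusted p of 0.0622. A predicted gene on the opposite strand overlaps Ccl2, and the sources used here do not say whether the counting used strand.

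Ccl7, a ligand of Ccr2 and of other CC receptors, lies 10.1 kb downstream of the Ccl2 start at chromosome 11, 82045712-82047525. Its log2 CPM was 2.48, 1.90, 1.88, 1.41 and 1.29 in IL-4 libraries 1 to 5, against 3.14, 2.60, 2.73, 2.39 and 5.41 in PBS libraries 1 to 5. Only IL-4 library 1 reached into the PBS range, just above PBS library 4, so that 4 of 5 IL-4 values lay below every PBS value. By the exact permutation test p was 0.0159, or 0.169 after Benjamini-Hochberg adjustment over 48 member tests. The difference was -1.46 (SE 0.49, 95% interval -2.48 to -0.44), 2.75-fold lower, with a limma adjusted p of 0.0439. Without PBS library 5 it was -0.92 with a limma adjusted p of 0.0885. The call was also lost when IL-4 library 2, 3, 4 or 5, IL-13 library 4, IL-31 library 1 or 5, or PBS library 1 was left out, with differences between -1.49 and -1.34 and limma adjusted p between 0.0523 and 0.105.

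Ccl12 encodes a mouse Ccr2 ligand and lies 66.3 kb from the Ccl2 start at chromosome 11, 82101845-82103400. It had the lowest level per kb of the 8 genes in IL-4 ears, and its values there rest on about 1 to 9 reads per library. Those in PBS ears rest on about 5 to 69 reads. Its log2 CPM was -1.52, -0.65, -1.34, -0.32 and -1.65 in IL-4 libraries 1 to 5, against -0.51, 0.07, -0.52, 0.56 and 2.60 in PBS libraries 1 to 5. The groups overlapped through IL-4 library 4, which lay above PBS libraries 1 and 3. By the exact permutation test p was 0.0317, or 0.169 after Benjamini-Hochberg adjustment over 48 member tests. The difference was -1.53 (SE 0.49, 95% interval -2.55 to -0.52), 2.90-fold lower, with a limma adjusted p of 0.0339. It was -0.82 as log2(CPM + 1) (limma adjusted p 0.0645) and -0.99 without PBS library 5 (limma adjusted p 0.0652), and the call was lost without IL-4 library 1, 3 or 5 or PBS library 2 as well, with limma adjusted p between 0.0506 and 0.0853.

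**Figure D2:**
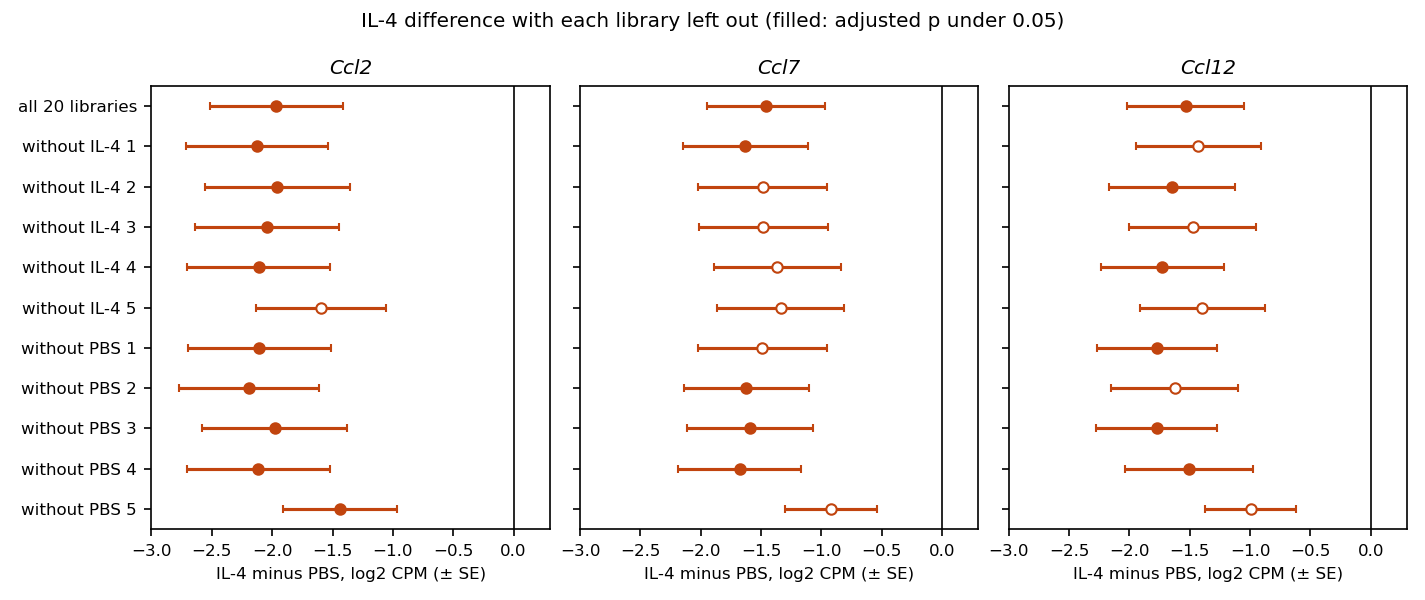
IL-4 minus PBS difference in log2 CPM (x axis, ± SE) for Ccl2, Ccl7 and Ccl12 with all 20 libraries and with each IL-4 or PBS library left out (y axis); filled points have a limma adjusted p under 0.05. Every estimate lies below 0, and the estimates nearest 0 are those without PBS library 5.

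Ccl8, whose start is 13.3 kb beyond that of Ccl12 on the same strand (chromosome 11, 82115185-82116799), had the highest level per kb of the 8 genes. Its log2 CPM was 2.73, 3.77, 4.30, 4.29 and 3.91 in IL-4 libraries 1 to 5, against 3.07, 4.53, 2.59, 4.56 and 5.58 in PBS libraries 1 to 5. The IL-4 values all lay within the PBS range, which was the wider of the 2. The difference was -0.27 (95% interval -1.15 to 0.62) with a limma adjusted p of 0.714, so a fall as large as that of Ccl2 lay outside the interval. Without PBS libraries 1, 2 and 3, which are low in epidermal genes, it was -1.27 with a limma adjusted p of 0.0478, and with the keratinocyte list score in the model it was -1.29 (limma adjusted p 0.0412). It turned to 0.11 without PBS library 5 (limma adjusted p 0.854).

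Ccl12 and Ccl8 are neighbours, and their promoters are shown because one gene passed the test and the other did not. Below are the 120 bases before each start, plus strand of GRCm38.p6 from RefSeq (chr11:82101725-82101844 for Ccl12 and chr11:82115065-82115184 for Ccl8), with a TATA box match in capitals.
Ccl12: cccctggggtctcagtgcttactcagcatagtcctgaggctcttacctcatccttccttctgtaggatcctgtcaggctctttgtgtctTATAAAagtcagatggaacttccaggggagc
Ccl8: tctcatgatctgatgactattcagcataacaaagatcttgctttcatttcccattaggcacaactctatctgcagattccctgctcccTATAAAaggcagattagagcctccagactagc
Both hold TATAAA, at -31 to -26 in Ccl12 and at -32 to -27 in Ccl8, counted from the start, and 12.4% of 32851 mouse promoter windows hold it on either strand. RefSeq windows of the 250 bases before the start were at hand for 4 of the 8 genes, Ccl8, Ccl12, Ccl22 and Ccl27a, and were searched on both strands. No window of these 4 genes held TTCNNNNGAA, a spacing bound by Stat6 (5.85% of all windows), TTCNNNGAA, a general Stat spacing (7.02%), the NF-kappaB consensus (7.25%) or GAAANNGAAA, the interferon response core (2.98%). The window of Ccl17, whose level was not analysed here, held TTCNNNNGAA at -154 to -145 and TTCNNNGAA at -99 to -91. The AP-1 motif TGANTCA was found once, in a Ccl27a window at -77 to -71 (6.75% of all windows), and it overlapped no other match. A match is a description of the sequence and not a bound site, and its absence speaks only of these windows.

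**Figure D3:**
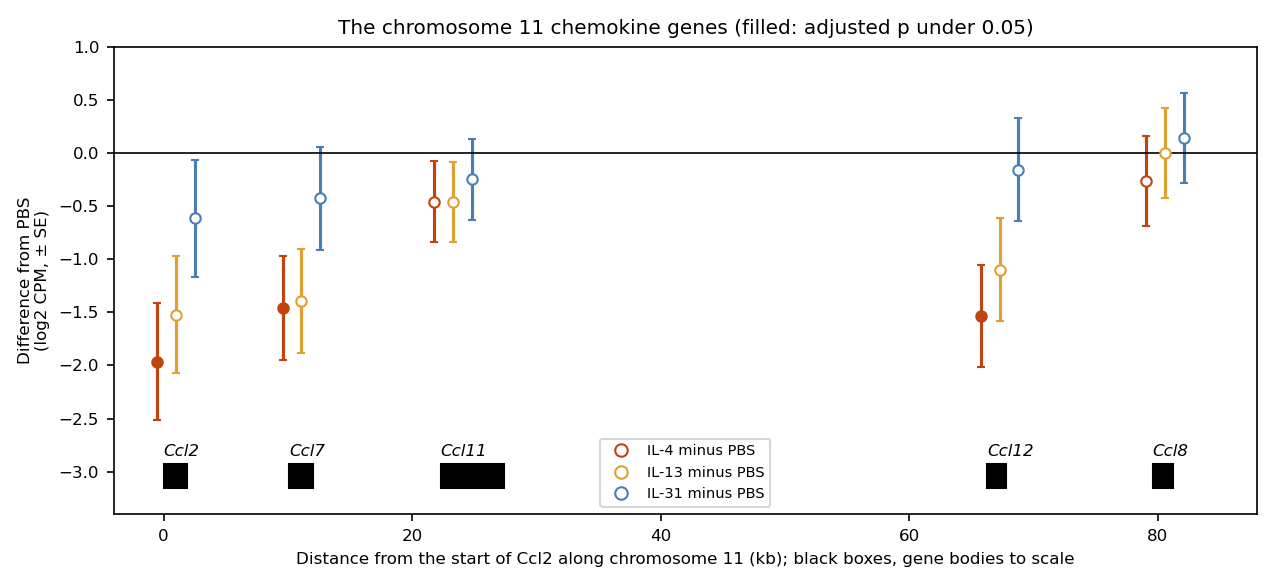
Difference from PBS in log2 CPM (y axis, ± SE) for the 5 chemokine genes of chromosome 11, placed by distance from the Ccl2 start in kb (x axis), in ears given each cytokine; filled points have a limma adjusted p under 0.05. Ccl2, Ccl7 and Ccl12 have filled IL-4 points, while Ccl11, which lies between Ccl7 and Ccl12, and Ccl8 do not.

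The eotaxin genes did not pass the test in IL-4 ears. Ccl24 (chromosome 5, 135569937-135573049, minus strand) had log2 CPM of 0.50, 0.85, 0.81, -0.77 and 0.84 in IL-4 libraries 1 to 5, against 0.76, 1.76, 0.30, 1.87 and 1.20 in PBS libraries 1 to 5. The groups overlapped, with IL-4 library 4 far below the other IL-4 libraries. The difference was -0.73 (95% interval -1.59 to 0.12, limma adjusted p 0.234), and without IL-4 library 4 it was -0.43 (limma adjusted p 0.526). Ccl11 (chromosome 11, 82057823-82062955) had a lowest, median and highest log2 CPM of 0.97, 1.79 and 1.94 in IL-4 ears, against 0.76, 1.97 and 2.99 in PBS ears, and a difference of -0.46 (95% interval -1.25 to 0.34, limma adjusted p 0.446).

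Ccl22, the measured Ccr4 ligand (chromosome 8, 94745590-94751699), had a lowest, median and highest log2 CPM of 1.40, 2.24 and 3.46 in IL-4 ears, against 1.64, 2.73 and 3.63 in PBS ears. The difference was -0.20 (95% interval -1.09 to 0.68, limma adjusted p 0.783), and the groups overlapped almost throughout. The Ccl22 difference turned to 0.08 without PBS library 5 (limma adjusted p 0.91). Ccl27a (chromosome 4, 41769467-41774247, minus strand) had 3.64, 3.89 and 4.20 in IL-4 ears, against 3.08, 4.40 and 4.56 in PBS ears. Its difference was -0.17 (95% interval -0.78 to 0.45, limma adjusted p 0.744). The value of Ccl27a is uncertain, because a near-identical copy, Ccl27b, lies on the same chromosome and Il11ra1 overlaps Ccl27a on the other strand.

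**Figure D4:**
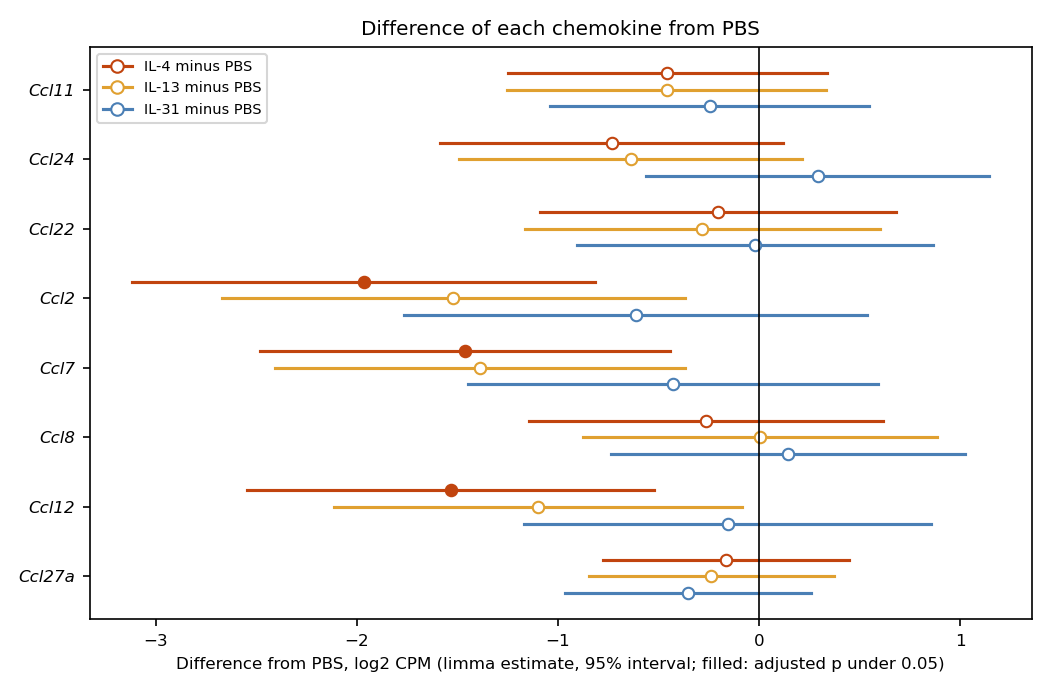
Difference from PBS in log2 CPM (x axis, limma estimate with 95% interval) for each chemokine (y axis) in IL-4, IL-13 and IL-31 ears; filled points have an adjusted p under 0.05. The filled points are Ccl2, Ccl7 and Ccl12 in IL-4 ears.

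The second comparison asked the same of IL-13. No member passed the limma test, against 19.7% of tested genes called in either direction and 9.80% called lower. At an unadjusted p under 0.05, 3 of 8 members (Ccl2, Ccl7 and Ccl12) were lower, as were 16.9% of tested genes. Of these members Ccl12 passed the filter only through IL-31 and PBS libraries, so the filter favoured a lower IL-13 value for it. This comparison shares its PBS libraries with the first, so their values are set side by side. Ccl7 had log2 CPM of 2.70, 1.95, 1.86, 1.92 and 0.89 in IL-13 libraries 1 to 5, and 4 of these lay below every PBS value. Its difference from PBS was -1.39 (95% interval -2.41 to -0.37, limma adjusted p 0.0509), next to -1.46 in IL-4 ears. The exact permutation p was 0.0238, or 0.169 after Benjamini-Hochberg adjustment over 48 member tests. Ccl2 had 1.64, 0.77, 0.47, 1.80 and -0.29 in IL-13 libraries 1 to 5, of which libraries 1 and 4 reached the PBS range. Its difference was -1.52 (95% interval -2.67 to -0.37, limma adjusted p 0.0578), next to -1.97 in IL-4 ears. The exact permutation p was 0.0476, or 0.208 after the same adjustment. Ccl12 had -0.39, -0.69, -0.53, -0.76 and -0.93, a narrow range of about 5 to 8 reads per library, with libraries 2 to 5 below every PBS value. For IL-13 library 3 (about 7 reads) the margin was slight, since PBS libraries 1 and 3 had -0.51 and -0.52 (about 5 and 7 reads). The Ccl12 difference was -1.10 (95% interval -2.11 to -0.09, limma adjusted p 0.117).

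These IL-13 values lie near the threshold. With 1 library of any group left out, 0 to 2 members were called: Ccl7 was called without IL-13 library 1, IL-31 library 3 or 4, or PBS library 4, and Ccl2 without IL-4 library 5, IL-13 library 4 or PBS library 4. Without PBS library 5 the differences were -0.99 for Ccl2, -0.85 for Ccl7 and -0.56 for Ccl12, with limma adjusted p of 0.122, 0.0986 and 0.271. Ccl8 had 4.20, 3.34, 4.27, 4.22 and 4.32 in IL-13 libraries 1 to 5, with library 2 apart from the rest, and a difference of 0.00 (95% interval -0.88 to 0.88). Ccl24 differed by -0.64 (95% interval -1.49 to 0.21, limma adjusted p 0.283) with values between -0.53 and 1.80 in IL-13 ears, and Ccl11 by -0.46 (limma adjusted p 0.416) with values between 0.39 and 2.35. Ccl22 ranged between 1.80 and 2.79 and Ccl27a between 3.18 and 4.78 in IL-13 ears, with differences of -0.28 (95% interval -1.17 to 0.60) and -0.24 (95% interval -0.85 to 0.37).

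The third comparison set IL-31 against the same PBS libraries. No member passed the limma test, where 6.38% of tested genes were called in either direction and 1.20% were called lower. None had an unadjusted p under 0.05 either, as 23.8% of tested genes had. Ccl2 had log2 CPM of 2.41, 0.71, 1.60, 2.65 and 1.56 in IL-31 libraries 1 to 5, and its difference was -0.61 (95% interval -1.76 to 0.54). Ccl7 had 3.05, 2.32, 1.98, 4.13 and 2.65, and its difference was -0.43 (95% interval -1.45 to 0.59). Ccl12 had 0.89, 0.97, -0.13, 0.32 and -0.64, and its difference was -0.16 (95% interval -1.17 to 0.86). All of these overlapped the PBS values broadly, with IL-31 library 4 the highest of its group for Ccl2 and Ccl7. When PBS library 5 was left out the differences were -0.09 for Ccl2, 0.11 for Ccl7 and 0.38 for Ccl12 (limma adjusted p 0.913, 0.858 and 0.496), so that Ccl7 and Ccl12 changed sign. Ccl24 had 2.07, 1.45, 1.14, 1.07 and 1.62, and its difference was 0.29 (95% interval -0.56 to 1.14). Ccl8 lay between 3.84 and 4.69 with a difference of 0.14 (95% interval -0.74 to 1.02), and Ccl11 between 1.28 and 2.19 with a difference of -0.25. Ccl22 lay between 1.74 and 3.72 (difference -0.02) and Ccl27a between 3.14 and 4.26 (difference -0.35, 95% interval -0.96 to 0.26).

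The cytokines were then compared with each other. None of the 16461 genes was called by limma in any of these 3 comparisons (0%), and the counts at an unadjusted p under 0.05 were 664 (4.03%) for IL-4 versus IL-13, 1743 (10.6%) for IL-4 versus IL-31 and 1200 (7.29%) for IL-13 versus IL-31. At that level 0, 4 and 1 of the 8 members passed. The 4 include Ccl12, which passed the filter only through IL-31 and PBS libraries, so the filter favoured a lower IL-4 value for it. Between IL-4 and IL-13, member differences ran between -0.44 (Ccl2, 95% interval -1.60 to 0.70) and 0.08 (Ccl22, 95% interval -0.81 to 0.96). Ccl2, Ccl7 and Ccl12 were therefore not shown to differ between IL-4 and IL-13 ears, although they were called against PBS only for IL-4. Between IL-4 and IL-31, Ccl24, a low gene that the stricter filter removed, had no overlap: every IL-4 value was at most 0.85 and every IL-31 value at least 1.07, a separation in the lower direction found for 1.76% of tested genes. Its difference was -1.02 (SE 0.41, limma adjusted p 0.337, exact permutation p 0.00794, or 0.169 after Benjamini-Hochberg adjustment over 48 member tests). In the same comparison Ccl12 differed by -1.38 (limma adjusted p 0.262), Ccl2 by -1.35 (limma adjusted p 0.348) and Ccl7 by -1.03 (limma adjusted p 0.463). Between IL-13 and IL-31, Ccl7 (-0.96), Ccl12 (-0.94), Ccl24 (-0.93) and Ccl2 (-0.91) had the largest member differences, with limma adjusted p between 0.594 and 0.867.

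As a background for the lists below, limma called 9.63%, 9.80% and 1.20% of tested genes lower with IL-4, IL-13 and IL-31. It called 1353, 1637 and 852 of the 16461 genes higher. Receptors and scavengers of CC chemokines were measured for 10 of 13 listed genes, and Ccr3, Ccr6 and Ccr8 were not analysed here. In IL-4 ears none of the 10 measured genes rose. Ccr2, the receptor of the called chemokines, had means of 3.84 in IL-4 ears and 4.80 in PBS ears (difference -0.96, limma adjusted p 0.0916). Ccr7, which guides dendritic cells to lymph nodes, differed by -0.91 (limma adjusted p 0.0773), Ccr1 by -3.20 (0.086) and Ccrl2, a chemerin-binding receptor, by -2.94 (0.0902), as limma adjusted p. In IL-13 ears 1 of 10 rose and none fell: Ccr4, the receptor of Ccl22, averaged 4.48 in IL-13 ears and 3.92 in PBS ears (difference 0.55, limma adjusted p 0.0227), while Ackr1 differed by -0.62 (limma adjusted p 0.0913) and Ccrl2 by -2.58 (0.13). In IL-31 ears limma called 0 of 10, and 0 had an unadjusted p under 0.05. The median log2 differences over the 10 genes were -0.61 with IL-4, -0.61 with IL-13 and -0.01 with IL-31.

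Of 11 other CC chemokines, 9 were tested, and Ccl21a, a lymphatic endothelial ligand of Ccr7, was the only gene called. It fell by 0.70 in IL-4 ears (limma adjusted p 0.027) and by 0.67 in IL-13 ears (limma adjusted p 0.031), and in IL-31 ears limma called 0 of 9, with 1 at an unadjusted p under 0.05. Ccl21a is uncertain, because near-identical copies of it exist in the mouse genome. In IL-4 ears Ccl19 differed by -1.23 (limma adjusted p 0.0892), Ccl9 by -0.86 (0.16) and Ccl28 by 0.64 (0.167). Of 13 tested NF-kappaB and acute inflammation targets, 4 fell in IL-4 ears and 3 in IL-13 ears, and none rose. Over all tested genes 9.63% were called lower with IL-4 and 9.80% with IL-13. In IL-31 ears limma called 0 of 13, with 2 at an unadjusted p under 0.05. Those that fell in IL-4 ears were Icam1 (-0.90), Nfkbiz (-0.81), Vcam1 (-1.20) and Selp (-1.23), genes of leukocyte adhesion apart from the NF-kappaB regulator Nfkbiz. Icam1, Nfkbiz and Vcam1 fell in IL-13 ears as well, by 0.74, 0.71 and 0.95 on the log2 scale. Of 15 genes of IL-4, IL-13 and IL-31 signalling, only Jak3, a kinase of the common gamma chain, was called against PBS, and it fell with each cytokine, by 0.91 with IL-4, 1.25 with IL-13 and 0.78 with IL-31 on the log2 scale. Il4ra differed by -0.55 (limma adjusted p 0.349), Stat6 by 0.14 (0.256) and Socs1, which restrains this signalling, by 0.12 (0.775) in IL-4 ears.

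Markers of the cells that these chemokines attract or that make them were set beside the results. The shares of all tested genes called lower were 9.63% with IL-4, 9.80% with IL-13 and 1.20% with IL-31. Of 10 monocyte markers 3 fell in IL-4 ears and none rose: the lysozyme gene Lyz2 (-1.08, limma adjusted p 0.0113), Plac8 (-2.21, limma adjusted p 0.0207) and Ms4a4c (-3.23, limma adjusted p 0.0376), with Vcan next (-0.86, limma adjusted p 0.0607). Their list summed to 274 to 427 CPM in IL-4 ears, against 364 to 1200 CPM in PBS ears, and Ms4a4c was at 0 reads in 1 of 20 libraries. Of 12 macrophage markers 5 fell in IL-4 ears, namely the complement genes C1qa, C1qb (-1.10) and C1qc (-0.83), the Fc receptor gene Fcgr1 (-3.46) and the lysosomal gene Cd68 (-0.99). This list summed to 221 to 310 CPM in IL-4 ears, against 225 to 771 CPM in PBS ears, and none of its genes was at 0 reads. In IL-13 ears 1 monocyte marker (Lyz2) and 4 macrophage markers (C1qa, C1qb, C1qc and Fcgr1) fell, and in IL-31 ears limma called 0 of either list, with 0 at an unadjusted p under 0.05. These markers moved in the same direction as Ccl2, Ccl7 and Ccl12, and their part in those results was not tested.

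Of 12 neutrophil markers, Lcn2 alone fell in IL-4 ears (-2.14, limma adjusted p 0.0484) and in IL-13 and IL-31 ears limma called 0, with 0 at an unadjusted p under 0.05. With the neutrophil list score in the model, Ccl2 differed between IL-4 and PBS by -1.47 (limma adjusted p 0.0644), Ccl7 by -1.13 (0.129), Ccl12 by -1.37 (0.0781) and Ccl24 by -1.16 (0.0422). All 12 muscle genes fell in IL-4 and in IL-13 ears. With the muscle score in the model limma called no gene for either cytokine. The Ccl2 difference in IL-4 ears was then -2.36 (SE 0.911, against 0.551 without the score, limma adjusted p 0.26). The muscle sums of IL-4 and IL-13 ears did not overlap those of PBS ears, so this fit cannot tell muscle content and cytokine apart. Of 12 fibroblast markers 3 fell in IL-4 ears and 2 in IL-13 ears, and of 10 endothelial markers 3 fell in IL-4 ears and 6 in IL-13 ears. The share of all tested genes called lower was 9.63% with IL-4 and 9.80% with IL-13. In IL-31 ears limma called 0 of the muscle, fibroblast and endothelial markers, with 2 muscle genes at an unadjusted p under 0.05. Of 12 markers of keratinocytes, which make Ccl27a, 7 rose in IL-4 ears, 8 in IL-13 ears and 7 in IL-31 ears. Over all 16461 tested genes 1353, 1637 and 852 were called higher with IL-4, IL-13 and IL-31.

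Of 10 eosinophil markers only Ear2, an eosinophil ribonuclease gene, was in the table, and it was not called in any comparison with PBS (limma adjusted p 0.969 with IL-4, 0.559 with IL-13 and 0.914 with IL-31). Siglecf, Prg2, Epx and the other listed eosinophil genes were not analysed here. Of 9 tested markers of Th2 and innate lymphoid cells, Rora rose in IL-4 ears (0.55) and Il1rl1, the IL-33 receptor gene, fell (-1.66). In IL-13 ears Ccr4, Gata3 (0.36) and Rora (0.42) rose and Il1rl1 fell (-1.32), and in IL-31 ears limma called 0 of 9, with 1 higher and 1 lower at an unadjusted p under 0.05. Gata3 and Rora are also expressed by keratinocytes. Cd3e, carried by T cells, differed by -0.05 in IL-4 ears (limma adjusted p 0.934). Among dendritic and Langerhans cell markers only Epcam, which epithelial cells also express, was called and it rose with all 3 cytokines. Limma called 0 of 6 mast cell and basophil markers with any cytokine, and 5 were lower at an unadjusted p under 0.05 in IL-13 ears.

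**Figure D5:**
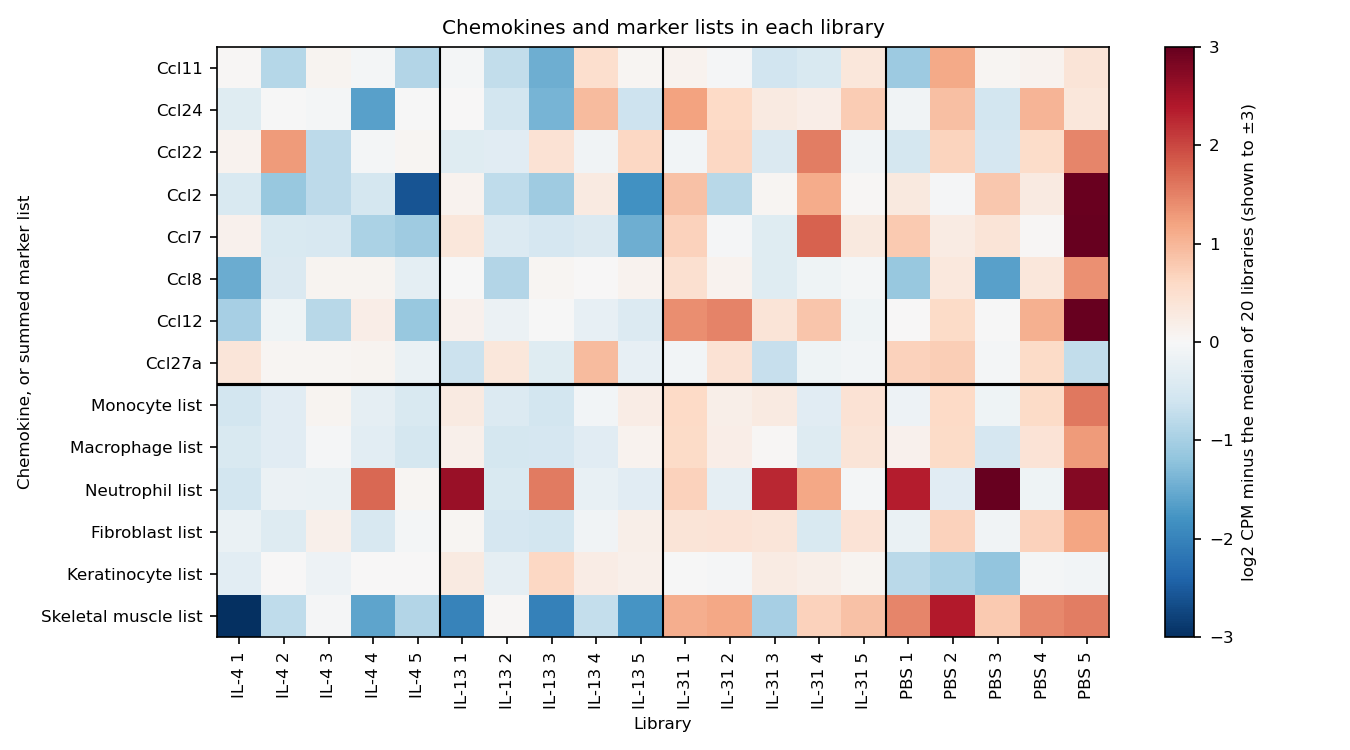
Log2 CPM minus the median of the 20 libraries (colour, shown to ±3) for the 8 chemokines and for the summed CPM of 6 marker lists (rows) in each library (columns, grouped as IL-4, IL-13, IL-31 and PBS). PBS library 5 is the reddest for Ccl2, Ccl7 and Ccl12 and is also high in the monocyte, macrophage, neutrophil and fibroblast lists.

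The chemokines also varied together across libraries. Over the 20 libraries Ccl2 and Ccl7 had Pearson's r of 0.893 and Spearman's rho of 0.863, each with a permutation p of 1e-05, the smallest that 100000 resamples give, and 0.00028 after adjustment over 28 pairs. The r was 0.816 without the 2 libraries farthest from the Ccl2 median and 0.825 after each group was centred on its mean. Ccl2 and Ccl12 had r of 0.747 (adjusted permutation p 0.00518) and rho of 0.582 (adjusted permutation p 0.0553), and r was 0.427 without the 2 farthest libraries, so this relation rests on them in part. Ccl8 and Ccl12 had r of 0.638 (adjusted permutation p 0.0216) and rho of 0.508 (adjusted permutation p 0.11). Ccl2 and Ccl8 had r of 0.283 (adjusted permutation p 0.377) and rho of 0.08, and Ccl11 and Ccl24 had r of 0.516 (adjusted permutation p 0.0947). No other pair passed an adjusted p of 0.05 by either measure than Ccl2 with Ccl7, Ccl2 with Ccl12, Ccl7 with Ccl12 (r 0.733, and 0.442 without the 2 farthest libraries) and Ccl8 with Ccl12. After group centring r was 0.556 for Ccl2 with Ccl12, 0.557 for Ccl7 with Ccl12 and 0.722 for Ccl8 with Ccl12. Without PBS library 5 r was 0.815 for Ccl2 with Ccl7 and 0.556 for Ccl2 with Ccl12. It was then 0.488 for Ccl7 with Ccl12 and 0.449 for Ccl8 with Ccl12. Libraries were resampled without regard to group, so differences between groups enter these permutation p-values. The labels name no batch, so no relation could be recomputed within one.

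Genes with the most similar pattern are given as a description over the same 20 libraries, which share tissue makeup, depth and treatment, and with no p. For Ccl2 these were Plac8 (r 0.877), Ifi205 (r 0.872) and Pik3r5 (r 0.865), and for Ccl7 they were Dusp6 (r 0.921), Mvp (r 0.89) and Slc39a14 (r 0.89). For Ccl12 they were Ehd4 (r 0.856), Map2k1 (r 0.854) and Cd48 (r 0.832), and for Ccl8 they were Otud6b (r 0.889), Atf6 (r 0.885) and the macrophage mannose receptor gene Mrc1 (r 0.881). Without PBS library 5 the r of these 12 pairs lay between 0.712 and 0.868. Ccl11 was nearest to Cpq (r 0.869), Pcca and Rgs18, and Ccl24 to the dermal matrix gene Dpt (r 0.824), Fcrls and Gjc1. Ccl22 was nearest to Cnih4 (r 0.773), Mrpl50 and Crispld2, and Ccl27a to Sult5a1 (r 0.827), Mllt6 and Tbc1d17.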

How the data were processed

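The authors' deposited table holds log2 CPM for 16669 genes in 20 libraries. The submitters' processing notes name edgeR and the build GRCm38, without a version. Aligner, counter, strand setting and annotation release were not given in the sources used here. Values were used as deposited. Their lowest value, -2.684, corresponds to an offset of 0.1556 CPM, so differences understate the change of low genes such as Ccl12. Of the low values, 79.9 to 86.7% were whole multiples of 1 read within 0.02 reads, too few to recover reads, so no count test was run. Read numbers per library are estimates from that spacing.

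GENCODE M21 gave symbols for 16644 identifiers, positions and exon lengths. Genes with log2 CPM of at least 0 in at least 5 libraries were kept (16461, with 208 removed). One limma model (lmFit, eBayes with trend) was fitted to 4 groups and 20 libraries, so all groups share an estimate of spread, and p-values were adjusted by Benjamini-Hochberg over all tested genes. This is the rule that the design set for log2 values; it was tested on simulated data. Exact permutation tests were two-sided. Alternatives were pseudocounts of 1 and 5, no filter and a stricter one (log2 of at least 1 in 10 libraries), quantile and median scaling, fits to the 10 libraries compared, other moderation, a replicate block, marker scores as covariates, and libraries left out.

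The members and the 15 gene lists were chosen with earlier results of these data known. The text names all members, the 3 genes most like each, and from the lists of receptors, other CC chemokines and attracted or producing cells the 4 genes of smallest adjusted p in a comparison, here shortened to called genes and a few next to them; the other named list genes were chosen after their values were seen. Some list genes that this rule names are not reported here. Software was limma 3.58.1 in R 4.3.3, and in python 3.11.15 scipy 1.17.1, numpy 2.4.6, matplotlib 3.10.9 and pandas 2.3.3.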

Additional observations from a re-analysis of the deposited data

Results flagged for a closer look

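In each of 32 sets of 5 libraries (8 genes in 4 groups) the gap between the most extreme library and its nearest neighbour was divided by the range of the set. It passed Dixon's 95% critical value in 4 sets, and chance gives about 1 set in 20. Ccl24 was low in IL-4 library 4 (log2 CPM -0.77, gap 0.786 of the range). Ccl8 was low in IL-13 library 2 (3.34, gap 0.877). PBS library 5 was high for Ccl2 (4.51, gap 0.72) and for Ccl7 (5.41, gap 0.751).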

How the results depend on the processing

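The 8 genes in 6 comparisons gave 48 differences, and 1620 values of them were obtained under 34 alternatives. No value passed the threshold with the opposite sign, and 81 changed sign without passing it. The Ccl2, Ccl7 and Ccl12 differences between IL-4 and PBS stayed below 0 in all 101 values, and their calls were lost in 4, 18 and 12 of them. Log2(CPM + 1) moved Ccl12 to -0.82 (adjusted p 0.0645), and log2(CPM + 5) moved Ccl2, Ccl7 and Ccl12 to -0.77, -0.86 and -0.30, since it compresses low values.

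Members called for IL-4 versus PBS numbered 1 with log2(CPM + 5), 1 with quantile scaling, 0 with only the 10 libraries compared, 1 with the neutrophil score and 0 with the muscle score, against 3. The member called with the neutrophil score was Ccl24, and the calls of Ccl2, Ccl7 and Ccl12 were lost. With the keratinocyte score, and without PBS libraries 1, 2 and 3, the number stayed at 3 but the genes changed. Ccl8 was called, and Ccl7 was not (limma adjusted p 0.0594 and 0.0578 in these 2 settings). In the same order Ccl2 differed by -2.455 and -2.722, Ccl7 by -1.86 and -2.106, and Ccl12 by -2.456 and -2.673. For IL-13 versus PBS 1 was called with the stricter filter and 1 without PBS libraries 1, 2 and 3, against 0. With 1 library left out, 0 to 3 members were called for IL-4 and 0 to 2 for IL-13.

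Genes called versus PBS (IL-4, then IL-13, then IL-31) numbered 1269, 1134 and 0 with only the 10 libraries compared, 0, 0 and 3 with the muscle score, 1499, 4 and 0 with the keratinocyte score, and 1200, 385 and 0 without PBS libraries 1, 2 and 3, against 2938, 3250 and 1050. For IL-4 versus IL-31, against 0, they numbered 3 with only the 10 libraries and 262 with the neutrophil score, which gave 133 for IL-13 versus IL-31. With 1 library left out they ran between 1885 and 3553 for IL-4, 1995 and 4703 for IL-13 and 0 and 3029 for IL-31 versus PBS, 0 and 304 for IL-4 versus IL-31, and 0 and 297 for IL-13 versus IL-31. The cause of these changes was not tested.

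Same-numbered libraries of different groups mostly did not deviate together (r between -0.236 and 0.486, and 3 of 20 libraries correlated best with their own number). For number 2, r lay between 0.029 and 0.486 (median 0.24). Such correlations cannot show whether the numbers mark a shared animal, cage or day. With a replicate block 1 member (Ccl2, limma adjusted p 0.0232) was called for IL-4 versus PBS, and 2 genes for IL-4 versus IL-31. The calls of Ccl7 (limma adjusted p 0.0587) and Ccl12 (0.0509) were lost with the block. Scaling moved the median of all genes by less than 0.1. Depth limits Ccl12 most, with about 1 to 9 reads per IL-4 library.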
